A study of Mus musculus with 7 samples.

Results

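Endoplasmic reticulum (ER) chaperones and the genes of the unfolded protein response were examined in regulatory T (Treg) cells with and without Hpgd, the gene of the enzyme that oxidises and inactivates prostaglandins. The set was defined by name. It lists 33 genes, of which 32 were rows of the deposited table of 15815 genes. They comprised 15 chaperones and folding enzymes, 6 stress sensors and transcription factors, 9 genes of ER-associated degradation and the translocon, and 2 targets of the transcription factor ATF4. Chac1, a further ATF4 target on the list, was not analysed here. All 32 passed the filter on low values, a mean of at least 10 normalized counts over the 7 libraries.

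The libraries came from YFP+ cells sorted by flow cytometry from mesenteric lymph nodes (mLN) of Rag-/- hosts, mice without endogenous T or B lymphocytes. Every host had received naive T cells and Treg cells, both WT, together with the YFP-marked Treg population, and was analysed 8 weeks later. The marked cells were WT in 4 libraries (WT 1 to 4) and Hpgd-deficient in 3 (KO 1 to 3). The strain label was C57BL/6JRcc for all 7. The line label, a floxed Hpgd allele with Foxp3-YFP-Cre and deletion in Treg cells, was also the same for all 7, so the genotype was taken from the titles. In that line the Foxp3 gene drives the Cre recombinase and YFP. Nothing in the labels states that the libraries are from different hosts. The p-values therefore reflect only how far these samples spread, and some of that spread may be technical.

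The ER folds proteins that enter the secretory pathway. Hspa5 (BiP) and its cochaperones bind unfolded chains, calnexin and calreticulin hold glycoproteins, and disulfide isomerases form and rearrange disulfide bonds. When unfolded protein accumulates, the membrane sensors IRE1 (Ern1), PERK (Eif2ak3) and ATF6 act through the transcription factors XBP1, ATF4 and cleaved ATF6, which raise chaperone, degradation and amino acid supply genes. In T cells the same genes also follow activation and the load of surface and secreted proteins.

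Reads behind the table ranged from 4135733 in KO 3 to 10622507 in WT 4. Levels are normalized counts, the deposited value minus its offset of 1, and 1 read was worth 0.703 (WT 4) to 1.84 (KO 3) of them. Hpgd itself was at 18.7, 9.96, 10.2 and 13.4 in WT 1 to 4 and at 0.759, 2.42 and 5.52 in KO 1 to 3. The groups did not overlap (exact two-sided permutation p = 0.0286, the smallest that 35 arrangements of 7 libraries can give), on 56 and 7 reads. Foxp3, which defines Treg cells, was read in every library, at 56.1 to 161 in WT and 107 to 142 in KO, and all 15 Treg markers on the list were in the table. Sdc1 and Derl3 mark plasma cells, which hold very high levels of ER chaperones. Sdc1 had no read in WT 1 to 4, against levels of 0.759, 0 and 16.5 in KO 1 to 3, and Derl3 did not exceed 2.81. Jchain reached 119 in KO 1 and lay between 3.68 and 21.5 in the other libraries. Pou2af1, a transcriptional coactivator gene of B lineage cells, was the only plasma cell marker whose groups did not overlap, at 1.10, 0, 0 and 0.703 in WT 1 to 4 against 4.55, 2.42 and 23.9 in KO 1 to 3, on 0 to 1 reads per WT library and 3 to 13 per KO library (limma unadjusted p = 0.0154, below the filter on low values). Its part in the ER gene levels was not tested. Only 6 of 15 plasma cell markers were rows of the table, and their summed level was 761 to 955 in WT and 588 to 962 in KO, of which Tnfrsf13b alone, a receptor gene that other lymphocytes also express, made up 710 to 924 and 541 to 858.

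In Treg cells of both genotypes all 15 chaperone genes stood above the 3 membrane sensors in mean level per length, although Eif2ak3 exceeded Hyou1 in KO 3. Per kilobase of the longest coding transcript (GENCODE M21), Pdia3, which encodes the disulfide isomerase ERp57 that works with calnexin and calreticulin, was highest of the 32, with a mean of 3233 normalized counts per kb over all libraries (range 2293 to 4239). Hspa5 followed at 1771 (1252 to 2260), Hsp90b1 at 1762 (1169 to 2198) and Calr at 1686 (1192 to 2435). These 3 overlapped in range, so their order is not resolved. Sec61b, a small subunit of the protein-conducting channel, came next at 1421 (1067 to 2112). Its range overlapped those of Hspa5, Hsp90b1 and Calr, so its place below them is not resolved either. Xbp1 was the most abundant transcription factor of the set, at 757 per kb, above Atf4 at 395 and Ddit3 at 242. The 3 membrane sensors were all low per kb, Eif2ak3 at 42.3, Atf6 at 26.2 and Ern1 at 13.8. Trib3 was lowest of the 32 at 10.9. Together the 32 genes took 0.538% (WT 3) to 0.790% (KO 2) of all reads, on average 0.633% ± 0.0716 for WT (SD, n = 4) and 0.690% ± 0.0872 for KO (SD, n = 3).

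**Figure D1:**
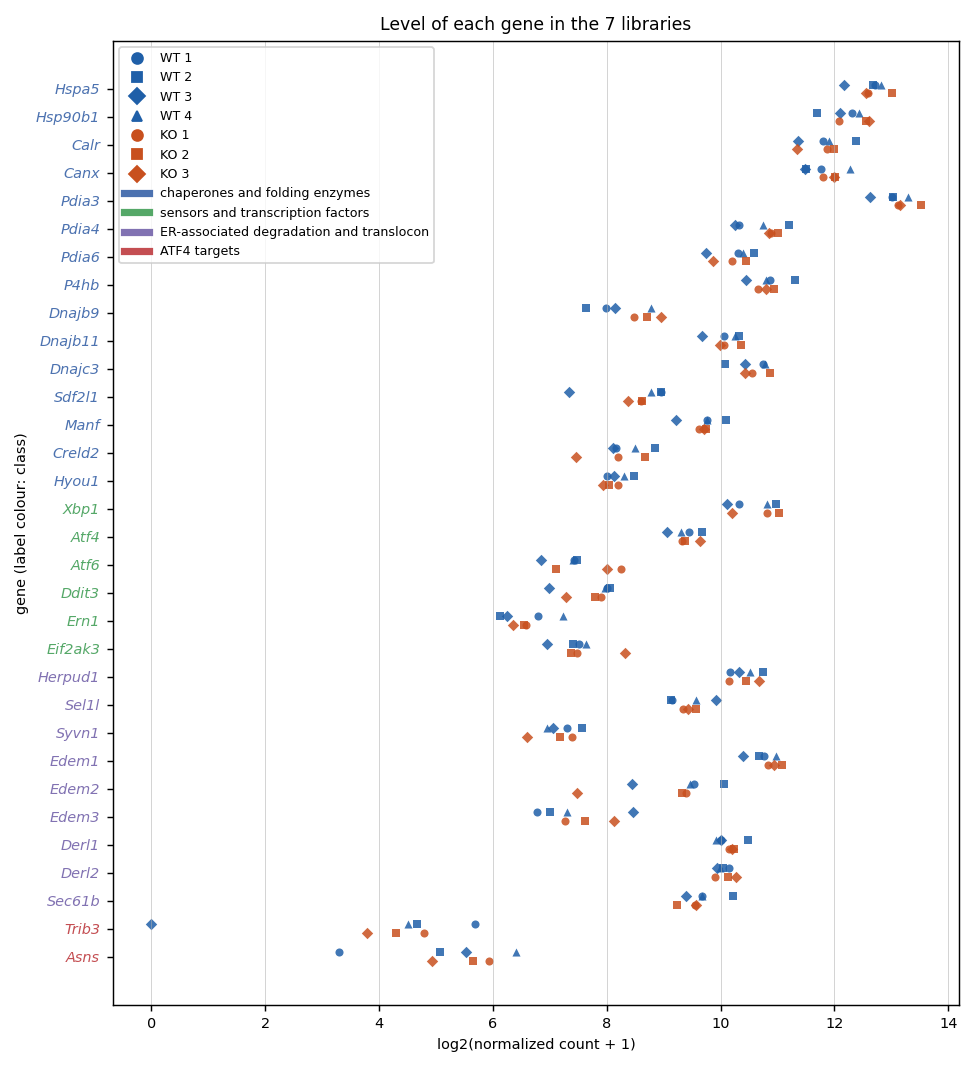
Level of each of the 32 genes in the 7 libraries, as log2(normalized count + 1) on the horizontal axis. Blue marks are WT, orange marks are KO, the mark shape gives the replicate and label colour the class, and levels are not divided by length. The groups overlap for every gene, WT 3 (blue diamonds) is the lowest library for 16 of 32, and Trib3 has no read in WT 3.

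The ER stress response element (ERSE), CCAAT and CCACG with 9 bases between, is a known binding site of ATF6 and XBP1 together with the factor NF-Y. Promoter windows of 300 bases, 250 before and 50 after the RefSeq transcription start (GRCm38.p6), were available for 28 of the 32 genes and were searched on both strands. ERSE matches lay in 8 of the 28 (28.6%), against 37 of 27025 genes in the whole table of promoters (0.137%). The set was named for the unfolded protein response and the motifs searched are known elements of it, so such shares are no independent finding about the set. Of the 13 chaperone genes with a window, 7 held one, none of the 5 sensor and transcription factor genes did, and 1 of 8 degradation and translocon genes did. The 9 matches, 2 of them in Hsp90b1, are shown because this motif was found in more of the 28 genes than the other 3 searched. They are written in the direction that reads CCAAT first, with CCAAT and CCACG in capitals.
Hspa5: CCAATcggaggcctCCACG
Hsp90b1, distal: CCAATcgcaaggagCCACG
Hsp90b1, proximal: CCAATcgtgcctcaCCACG
Calr: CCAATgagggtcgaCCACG
Canx: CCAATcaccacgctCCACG
Pdia6: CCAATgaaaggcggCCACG
Dnajc3: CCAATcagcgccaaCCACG
Creld2: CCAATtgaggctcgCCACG
Syvn1: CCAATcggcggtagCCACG

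The Hspa5 match lay nearer the start than the ERSE matches of the other chaperone genes, 65 to 47 bases before it (chr2:34772025-34772043). The Hsp90b1 matches lay 212 to 194 and 107 to 89 bases before the start (chr10:86705638-86705656 and chr10:86705533-86705551), the latter on the opposite strand. Those of Calr and Creld2 were also on the opposite strand, 162 to 144 and 126 to 108 bases before the start. In GENCODE M21 the Hspa5 gene begins at 34771970, so its match falls inside that gene model, while the other 8 matches lie upstream of theirs. The shorter ERSE-II, ATTGG and CCACG with 1 base between, was found in Herpud1 and Dnajb11 (7.14% of the 28, against 0.0444% of all genes). The sequence TGATGNAA, a form of the ATF4 and C/EBP element called CARE, was found in Asns, Trib3 and Herpud1 (10.7% against 4.51%). TGACGTGG, a core of the XBP1 element called UPRE, was in none of the 28 windows and in 0.714% of all genes. A match is a string of letters and not a measured binding site.

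Upstream windows of 3 genes are given whole, 250 bases each ending at the base before the RefSeq start. Herpud1 was chosen as the only one of the 28 genes with matches to both ERSE-II and CARE, Creld2 for a match on the opposite strand, and Canx for one on its own strand. Capitals mark the matches as they stand on the gene's own strand.
Herpud1, chr8:94386179-94386428, plus strand: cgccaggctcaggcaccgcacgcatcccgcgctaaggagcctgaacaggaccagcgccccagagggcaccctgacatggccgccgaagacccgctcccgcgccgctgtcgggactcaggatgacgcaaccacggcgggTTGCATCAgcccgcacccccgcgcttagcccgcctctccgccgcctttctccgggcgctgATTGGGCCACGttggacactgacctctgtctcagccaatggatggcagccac
Creld2, chr15:88819396-88819645, plus strand: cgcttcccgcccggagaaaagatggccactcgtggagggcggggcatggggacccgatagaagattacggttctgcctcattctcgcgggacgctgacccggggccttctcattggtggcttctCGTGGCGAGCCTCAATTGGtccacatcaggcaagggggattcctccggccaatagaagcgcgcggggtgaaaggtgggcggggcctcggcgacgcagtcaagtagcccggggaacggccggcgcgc
Canx, chr11:50325674-50325923, minus strand: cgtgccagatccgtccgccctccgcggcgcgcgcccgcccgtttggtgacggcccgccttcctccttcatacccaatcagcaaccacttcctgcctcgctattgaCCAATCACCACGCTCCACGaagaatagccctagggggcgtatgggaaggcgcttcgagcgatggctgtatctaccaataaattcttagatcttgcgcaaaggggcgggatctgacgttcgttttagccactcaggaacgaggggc

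**Figure D2:**
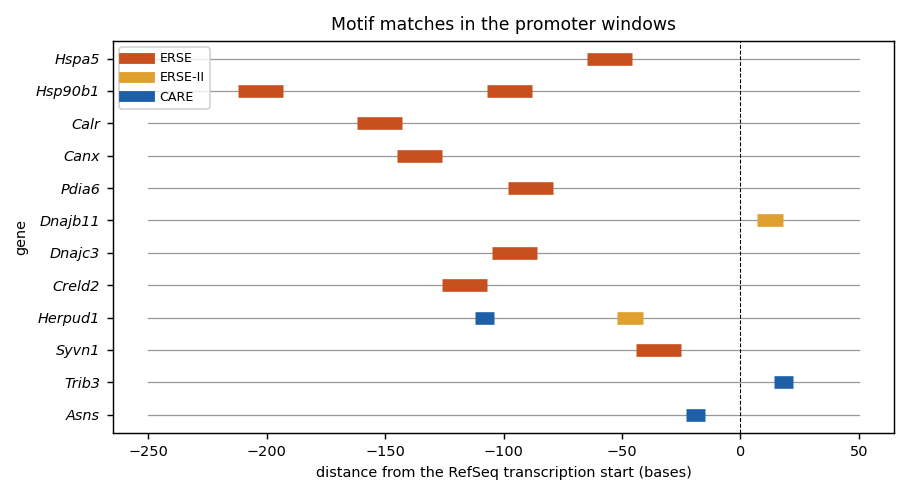
Position of each motif match in the promoter windows, in bases from the RefSeq transcription start (0, dashed line), for the 12 genes that hold one. Orange bars are ERSE, yellow bars ERSE-II and blue bars CARE. All ERSE matches lie upstream of the start, and Dnajb11 and Trib3 carry their matches just after it.

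Hspa5, which holds an ERSE match and encodes the central ER chaperone BiP (mm10, chromosome 2, 34771970 to 34777547, plus strand), lay at 6688, 6527, 4599 and 7228 normalized counts in WT 1 to 4 and at 6168, 8298 and 6026 in KO 1 to 3. WT 3 was the lowest library and KO 2 the highest, and the other 5 lay between 6026 and 7228 in both groups. It averaged 6260.4 ± 1148 in the WT group (SD, n = 4) against 6830.4 ± 1273 in the KO group (SD, n = 3). The log2 fold change, KO minus WT on the log2(normalized count + 1) scale, was 0.13 (SE 0.22, 95% interval -0.35 to 0.61). Neither Hspa5 nor any other of the 32 genes passed in limma, where every one had an adjusted p of 1.00. Of all 11787 genes tested, 0% passed at an adjusted p of 0.05.

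Hsp90b1 encodes GRP94, the ER form of HSP90 that folds integrins and Toll-like receptors (chromosome 10, 86690209 to 86705509, minus strand). It lay at 5063, 3302, 4379 and 5498 in WT 1 to 4 and at 4352, 6036 and 6208 in KO 1 to 3. WT 2 was lowest and KO 1 lay within the WT range, and the log2 fold change was 0.29 (SE 0.23, 95% interval -0.21 to 0.78). Calr encodes calreticulin, a lectin chaperone for glycoproteins (chromosome 8, 84841850 to 84846934, minus strand). It was at 3572, 5317, 2631 and 3833 in the WT libraries and at 3741, 4072 and 2604 in the KO libraries. WT 2 was highest here, where it had been lowest for Hsp90b1, and the log2 fold change of Calr was -0.13 (SE 0.25). Across the 7 libraries Calr and Hsp90b1 had an r of -0.50.

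Pdia6 encodes a disulfide isomerase that binds BiP. Its levels were 1272, 1536, 854 and 1337 in the WT group against 1178, 1399 and 938 in the KO group, lowest in WT 3. Sdf2l1 encodes a luminal partner of the BiP cochaperones and had the widest range of the chaperone class, 3.09-fold, with 496, 497, 161 and 440.0 in the WT group against 388, 391 and 329 in the KO group. Without WT 3 all 3 KO libraries would lie below all WT libraries for Sdf2l1. Creld2, a secreted folding factor with an ERSE match, was at 286, 459, 275 and 362 in the WT group against 293, 406 and 175 in the KO group. Here KO 3 was lowest. The log2 fold changes were -0.08 (SE 0.23) for Pdia6, 0.02 (SE 0.36) for Sdf2l1 and -0.30 (SE 0.31) for Creld2.

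Of the other 9 chaperone genes, Dnajb9 stood closest to a difference. It encodes ERdj4, a BiP cochaperone that also restrains IRE1, and was singled out after its values were seen. Its levels were 252, 197, 282 and 440.0 in the WT group against 357, 415 and 496 in the KO group, so that 2 KO libraries lay within the WT range only because of WT 4. The log2 fold change was 0.58 (SE 0.28, 95% interval -0.03 to 1.19), with the smallest unadjusted limma p of the 32 genes (0.0595, adjusted p = 1.00). Pdia3 averaged 8234 ± 1481 in the WT group (SD, n = 4) against 9921 ± 1579 in the KO group (SD, n = 3). The calnexin gene Canx was at 3558 ± 985 and 3916 ± 326, and Pdia4, another disulfide isomerase gene, at 1640 ± 521 and 1938 ± 111. The isomerase gene P4hb was at 1889 ± 469 in WT and 1789.5 ± 177 in KO. For the BiP cochaperone genes the means were 1095 ± 207 and 1129 ± 159 for Dnajb11, and 1485 ± 323 and 1583 ± 262 for Dnajc3. Manf, a BiP-binding factor, was at 855 ± 203 and 826 ± 37.4. Hyou1, a nucleotide exchange factor for BiP, was the most even of the class, with a range of 1.46-fold and means of 301 ± 42.6 and 266 ± 24.8. Their log2 fold changes ran from -0.17 (Hyou1) to 0.58 (Dnajb9).

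Xbp1 encodes the transcription factor that IRE1 activates by splicing its mRNA (chromosome 11, 5520659 to 5525893, plus strand). The table gives 1 value per gene, so the spliced and unspliced forms could not be separated. Xbp1 was at 1286, 2016, 1112 and 1797 in the WT group against 1805, 2096 and 1177 in the KO group. WT 3 was lowest with KO 3 close to it, and the log2 fold change was 0.13 (SE 0.26). Atf4, whose protein level is set mainly by translation under PERK and related kinases, was at 695, 819, 530.4 and 629.8 in the WT group against 637, 666 and 794 in the KO group. It was among the more even genes, with a range of 1.54-fold and a log2 fold change of 0.07 (SE 0.21). Ddit3 encodes CHOP, a factor linked to cell death under prolonged ER stress. Its levels were 256, 265, 126 and 250.2 in the WT group against 238, 219.7 and 154 in the KO group, with WT 3 lowest and a log2 fold change of -0.10 (SE 0.32).

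Atf6, the sensor that is cleaved in the Golgi, was at 171, 177, 114 and 168 in the WT group against 304, 137 and 257 in the KO group. KO 1 and KO 3 lay above every WT library and KO 2 did not, and the log2 fold change was 0.51 (SE 0.32, 95% interval -0.19 to 1.20; limma unadjusted p = 0.139, adjusted p = 1.00). Eif2ak3, the PERK gene, was at 183, 168, 123 and 199 in the WT group against 178, 165 and 320.0 in the KO group. Only KO 3 lay above the WT range, and the log2 fold change was 0.35 (SE 0.31). Ern1, the IRE1 gene, was at 110.0, 68.8, 74.6 and 149.7 in the WT group against 94.9, 92.1 and 80.9 in the KO group, all 3 KO values inside the WT range. Its log2 fold change was -0.11 (SE 0.36).

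Among the degradation genes, Herpud1, which scaffolds the ubiquitin ligase complex and carries both an ERSE-II and a CARE match in the window printed above, was at 1153, 1725, 1283 and 1468 in the WT group against 1136, 1402 and 1638 in the KO group. The groups spanned almost the same interval, with a log2 fold change of -0.01 (SE 0.21). Sel1l, which encodes the adaptor of the SYVN1 ligase, lay at 564, 562, 969 and 761 in the WT group against 649.6, 763 and 686 in the KO group. It was highest in WT 3, where 16 other genes of the set were lowest, and its log2 fold change was 0.00 (SE 0.23). The ligase gene Syvn1 averaged 150.2 ± 29.5 in the WT group (SD, n = 4) against 136 ± 36.5 in the KO group (SD, n = 3).

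The 3 mannosidase-like genes that mark glycoproteins for degradation did not follow each other, a pattern described after the values were seen. Edem1 was even, at 1684 ± 274 in WT and 1974 ± 169 in KO. Edem2 was at 741, 1070, 348 and 705 in the WT group against 674, 639.8 and 177 in the KO group, the widest range of the degradation class at 6.06-fold. Edem3 was at 109, 127, 349 and 157 in the WT group against 153, 196 and 278 in the KO group, so that WT 3 and KO 3 were the lowest libraries for Edem2 and the highest for Edem3. Their r across the 7 libraries was -0.82. Transcript GC was 53.3% for Edem2 and 43.5% for Edem3, and library levels also moved with GC, whose part in this was not tested. The log2 fold changes were 0.24 (SE 0.19), -0.65 (SE 0.45) and 0.29 (SE 0.39) for Edem1 to Edem3.

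The derlin genes, which encode membrane proteins of the retrotranslocation step, differed in spread. Derl2 had the smallest range of all 32 genes, 1.30-fold, at 1045 ± 63.8 in WT and 1102 ± 141 in KO, and Derl1 was at 1109 ± 212 and 1174 ± 38.6. Sec61b averaged 875 ± 223 in the WT group and 704 ± 88.5 in the KO group. Its log2 fold change was -0.29 (SE 0.22, 95% interval -0.77 to 0.20).

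Both ATF4 targets were scarce. Asns encodes asparagine synthetase and was at 8.80, 32.6, 45.2 and 84.3 in the WT group against 60.0, 49.3 and 29.4 in the KO group. The WT libraries spanned 9.58-fold and enclosed every KO value. Trib3, a pseudokinase gene, was at 50.6, 24.4, 0 and 21.8 in the WT group against 26.6, 18.6 and 12.9 in the KO group. No read was counted in WT 3, which allows a level of up to 3.39 normalized counts there (3 reads, counting error only). The log2 fold change of Trib3 was 0.57 (SE 1.15) although its mean level was higher in WT (24.2 ± 20.7) than in KO (19.3 ± 6.88), and without WT 3 its log2 fold change was -0.67. That of Asns was 0.43 (SE 0.67).

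Over the set, 20 of 32 estimates lay above 0 and 12 below, KO against WT (62.5% higher, against 51.8% of all tested genes), and the median log2 fold change was 0.07, against 0.01 over all tested genes. By class, 9 of 15 chaperone genes (median 0.06), 4 of 6 sensor and transcription factor genes (0.10), 5 of 9 degradation and translocon genes (0.00) and both ATF4 targets (0.50) had higher estimates. None of the 32 had an unadjusted p under 0.05, against 1.79% of all tested genes, and none had groups that did not overlap, against 3.65%. Voom on the recovered reads also called none of the 32 and no gene at all. The count of higher estimates rested on single libraries: without WT 3, or without KO 2, it was 14 of 32. The chaperone median was -0.08 without WT 3 and -0.02 without KO 2, and the sensor median was -0.03 without WT 3. Over the 29 genes with a mean of at least 100, the median within-group SD was 0.30 on the log2 scale, against 0.33 for all tested genes above that level.

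**Figure D3:**
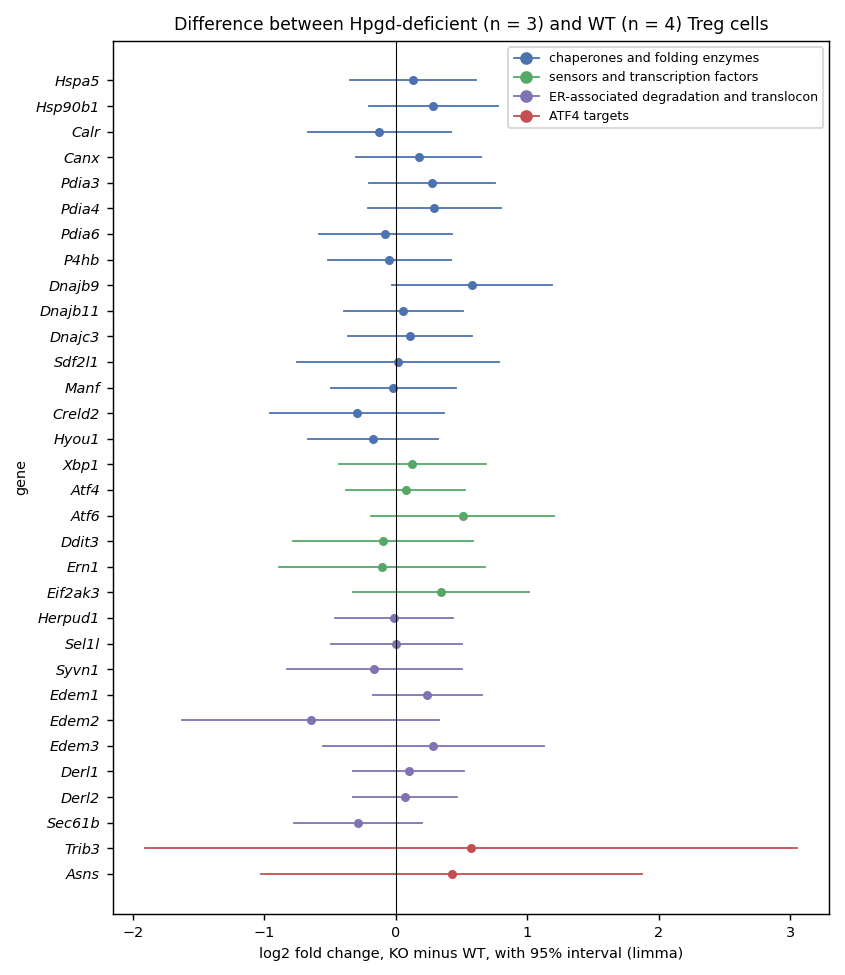
Log2 fold change of each of the 32 genes, KO minus WT, from limma on log2(normalized count + 1) with 4 WT and 3 KO libraries. Points are estimates, horizontal lines are 95% intervals, and colour gives the class. Every interval includes 0, that of Dnajb9 runs from -0.03 to 1.19, and Trib3 and Asns have the widest.

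Summed markers of other cell types overlapped between the genotypes for every list but the erythroid one. The summed level of 5 erythroid genes in the table (of 8 on the list) was 642 to 2809 in WT and 77.4 to 239 in KO, without overlap. The 15 myeloid and dendritic cell markers summed to 562 to 1623 in WT and 906 to 2425 in KO, and the 8 B cell markers present (of 10) summed to 438 to 837 and 403 to 510. Of these Cd79b gave most and Cd79a lay between 2.11 and 12.9. The 7 stromal and endothelial markers present (of 10) summed to 254 to 472 and 333 to 447, and the 8 CD8 T and NK cell markers to 2233 to 6289 and 3172 to 4456. Pecam1 gave most of the stromal and endothelial sum in every library, and Nkg7 most of the CD8 T and NK cell sum. A sum can hide single genes. Fcgr1, a high-affinity IgG receptor gene of myeloid cells, was the only 1 of the 15 myeloid and dendritic markers whose groups did not overlap, at 0, 0, 0 and 0.703 in WT 1 to 4 against 9.87, 13.7 and 16.5 in KO 1 to 3 (limma unadjusted p = 0.00042, below the filter on low values). Fcgr1 and Pou2af1 were singled out after their values were seen. Of the erythroid markers 4 of 5, all globin genes, did not overlap and were lower in KO, against 3.65% of all tested genes without overlap. Their log2 fold changes ran from -3.74 (Hba-a1) to -2.90 (Hba-a2). The limma adjusted p of Hba-a1 and Hbb-b1, 0.189, was the lowest of all tested genes. All the B cell, stromal and endothelial, CD8 T and NK cell and Treg markers in the table overlapped. The part of these cells in the levels above was not tested. In bulk RNA, fewer cells of a type and less RNA per cell cannot be told apart.

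A single WT library stood low for much of the set. WT 3 was the lowest of 7 libraries for 16 of 32 genes, while 19.2% of all tested genes were lowest there. This held for 9 of 15 chaperone genes and 5 of 6 sensor and transcription factor genes, but for only 1 of 9 degradation and translocon genes (Edem1). WT 3 lay below the mean log2 level of the other 6 libraries for 29 of 32 genes, by a median of 0.43 on the log2 scale. Of all tested genes 48.7% lay below, with a median difference of 0.01. Hspa5 in WT 3 was at 0.674 of the mean of the other libraries, Pdia3 at 0.676, Xbp1 at 0.655, Ddit3 at 0.544 and Sdf2l1 at 0.379. Sel1l and Edem3 went the other way, at 1.46 and 2.06 of that mean. WT 3 was looked at after its values were seen, and no test was made.

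WT 3 was also at the extreme of some other measures, several of them carried by a single gene. Its myeloid and dendritic markers summed to 562, against 1595 to 1623 in the other WT libraries and 906 to 2425 in KO. Lyz2, a lysozyme gene of macrophages and neutrophils, was at 47.5 against 482 to 1274 and gave most of the gap to the other WT libraries. The other markers of that list went both ways. Among the WT libraries, WT 3 was lowest for Csf1r (71.3 against 147 to 250) and highest for S100a8 (96.1 against 16.3 to 59.4). The summed Treg markers were lowest there too, at 67863 against 72154 to 91204. Single Treg markers went both ways, with Capg lowest in WT 3 (5946 against 9061 to 14512) and Ikzf2 near the top (13666 against 4832 to 13872). The summed CD8 T and NK cell markers were also lowest in WT 3, at 2233 against 2969 to 6289, and Nkg7 alone gave 1857 of the 2233. Foxp3 was highest in WT 3, at 161 against 56.1 to 142, and so were the summed stromal and endothelial markers, at 472 against 254 to 447. Pecam1 alone gave 425 of that 472, and was at 212 to 390 in the other libraries. Its read total, 6129064, was within the range of the others. The part of these differences in the ER gene levels was not tested.

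WT 2 was the highest library for 15 of 32 genes (46.9%), against 29.2% of all tested genes. Library deviations were also compared with base composition and transcript length. Over 11034 genes with a transcript model, the signed distance of a library from the gene's median was correlated with transcript GC, positively in WT 2 (Spearman rho 0.53 across genes) and KO 1 (0.27) and negatively in KO 3 (-0.31) and WT 3 (-0.22). With transcript length the Spearman rho was -0.40 in WT 2 and 0.28 in WT 3, and from -0.03 to 0.10 in the other libraries. Within the 32 genes Pearson's r with GC was 0.71 in WT 2, -0.52 in KO 3, -0.45 in WT 3 and -0.44 in KO 2, but 0.04 in KO 1. The WT 3 value includes Trib3, which had no read there. Genes are not independent replicates, so these values describe the libraries. After a correction for GC and transcript length, WT 2 was highest for 12 of 32 genes (26.0% of all genes), while WT 3 was still lowest for 19 of 32 (20.2% of all genes), among them 11 of 15 chaperone genes. The part of base composition or transcript length in either library's levels was not tested beyond this correction.

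**Figure D4:**
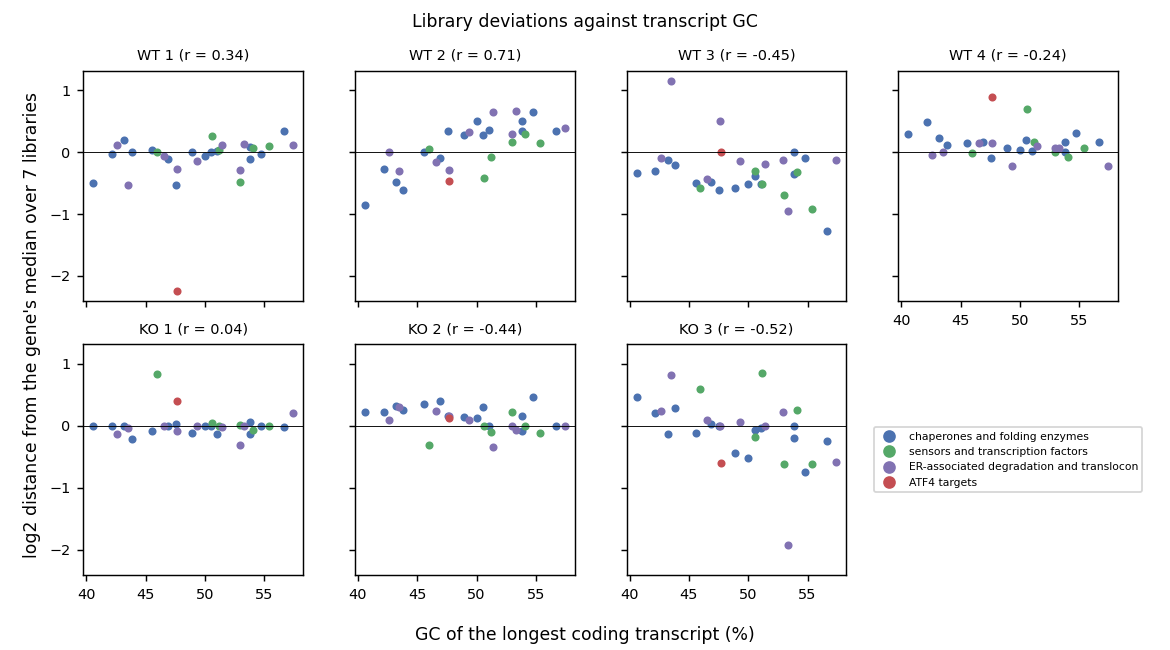
Distance of each gene from its median over the 7 libraries (log2, vertical) against the GC percent of its longest coding transcript (horizontal), 1 panel per library, coloured by class. Trib3 is left off the panels for scale, and the r in each title includes it. Points climb from left to right in WT 2 (r = 0.71), fall in KO 3 (r = -0.52), and lie mostly under 0 in WT 3 (r = -0.45).

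Co-variation across the 7 libraries was examined in 8 gene pairs, with exact permutation tests over 5040 pairings, two-sided. No pair passed after Benjamini-Hochberg adjustment over the 8, where permutation p ran from 0.145 to 0.932 for Pearson's r and from 0.222 to 0.783 for Spearman's rho. Hspa5 and Pdia6 had the highest Pearson r, 0.80 (exact p = 0.0210, adjusted p = 0.145; Spearman rho 0.79, exact p = 0.0480, adjusted p = 0.222), and r was 0.64 without KO 2 and WT 3, the libraries farthest from the Hspa5 median. Without WT 2 this pair passed (r = 0.92, exact permutation adjusted p = 0.0111), and without WT 3 its r was 0.58. For Hspa5 and Sdf2l1 r was 0.79 (exact p = 0.0597; rho 0.64, exact p = 0.139) and 0.65 without the same 2 libraries. For Hspa5 and Xbp1 r was 0.74 (exact p = 0.0363, adjusted p = 0.145; rho 0.71, exact p = 0.0881), and 0.36 without them. Hspa5 with Calr gave an r of 0.62 (exact p = 0.129; rho 0.68, exact p = 0.110), 0.42 without them. Hspa5 with Hsp90b1 gave 0.37 (exact p = 0.411; rho 0.25, exact p = 0.595), 0.00 without them. Those libraries were the extremes of Hspa5 itself, so leaving them out narrows its range in all 5 pairs.

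The other 3 pairs join a regulator to a known target. Xbp1 and Dnajb9, a standard XBP1 target, had an r of -0.04 (exact p = 0.932; rho -0.14, exact p = 0.783). Atf4 and Asns had an r of -0.38 (exact p = 0.397; rho -0.64, exact p = 0.139). Atf4 and Ddit3 had an r of 0.41 (exact p = 0.351; rho 0.50, exact p = 0.267), which turned to -0.86 without WT 2 and WT 3, the libraries farthest from the Atf4 median. For the first pair r was 0.24 without KO 3 and WT 3, and for the second -0.52 without WT 2 and WT 3.

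As a description over 7 libraries that share depth and base composition effects, the median r over all pairs of the 15 chaperone genes was 0.51, against 0.26 over all pairs of the 32 genes and 0.00 over all pairs of tested genes. WT 3 was the lowest library for 9 of the 15 chaperone genes. The medians were not computed without WT 3, so its part in them was not tested. The 9 degradation and translocon genes had a median of -0.06. Among 11786 other tested genes, Pdia3 ranked 6 by r with Hspa5 (0.93), Dnajb11 ranked 21 (0.91) and Edem1 52 (0.87). These 3 had the highest r with Hspa5 in the set and were picked after the values were seen. Like Hspa5, all 3 were lowest in WT 3 and highest in KO 2. Their r without those libraries was not computed. At the other end, r with Hspa5 was -0.41 for Sel1l and -0.58 for Edem3. None of Pdia3, Dnajb11 and Edem1 holds an ERSE match in its window, though Dnajb11 holds an ERSE-II match. Over the 7 other genes with an ERSE match the median r with Hspa5 was 0.53, and over the 20 genes without one it was 0.47.

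Further genes of the same pathways were read from 5 lists. Of 120 tested, 59 had higher and 61 lower estimates in KO, and none passed an adjusted p of 0.05 in limma. Other folding enzymes and cochaperones had 8 of 20 higher (median log2 fold change -0.04), with Ppib (2309 per kb) and Sdf2 (537 per kb) the most abundant per length. In the list of the translocon and oligosaccharyl transferase, 14 of 27 were higher (0.01), led per length by Sec11c (2992 per kb), a signal peptidase subunit, and Spcs2 (1872 per kb). Of other sensors, kinases of eIF2alpha and related genes, 11 of 25 were higher (-0.04), with Tmbim6 (2600 per kb) and Bax (760 per kb) the most abundant. For other ATF4 and amino acid response genes 16 of 29 were higher (0.01), with the transporter genes Slc1a5 (466 per kb) and Slc3a2 (458 per kb) on top. Other degradation genes had 10 of 19 higher (0.02), led by Hsp90aa1 (2086 per kb) and Selenok (1080 per kb).

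Only 1 of these 120 genes had an unadjusted p under 0.05, against the 1.79% of all tested genes. It was Hsp90aa1, which encodes a cytosolic HSP90 and is not an ER protein. It lay at 4318, 3989, 6284 and 6509 in the WT group against 5104, 10170.2 and 11529.6 in the KO group. KO 2 and KO 3 were above every WT library and KO 1 within their range, and the log2 fold change was 0.71 (SE 0.29, limma unadjusted p = 0.0314, adjusted p = 1.00). Ddit4, a stress-responsive inhibitor of mTORC1 signalling, was the only one of the 120 whose groups did not overlap, against 3.65% of all tested genes. It was at 277, 509, 333 and 271 in the WT group against 267, 198 and 270.3 in the KO group, and its log2 fold change was -0.47 (SE 0.27, limma unadjusted p = 0.111, adjusted p = 1.00). The gap between the groups was small, from 270.3 in KO 3 to 271.3 in WT 4.

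For 10 of the 32 genes an exon overlapped that of another gene, over more than 100 bases for 4 of them (Derl2 with Mis12, Eif2ak3 with Gm43292, Hsp90b1 with 1810014B01Rik and Gm25745, and Manf with Dcaf1 and 4930524O07Rik). SmartSeq2 libraries carry no strand, so reads of partners on the opposite strand cannot be told apart over the shared bases. Of the partners named here only Gm25745 lies on the same strand, where strand would not separate the reads either.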

How the data were processed

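Bulk RNA-seq was measured in 7 libraries (4 WT, 3 KO, grouped by their titles) from 10 ng of total RNA. Per the labels' protocols the kit was SmartSeq2 (full-length cDNA, no molecular identifiers, no strand), the instrument a NextSeq 500 and the demultiplexer bcl2fastq2 2.20. Listed in the submitters' processing notes are the build mm10 and the tools DESeq2, kallisto 0.44, Partek 6.6, CASAVA 1.8 and R 3.3.1. What each tool did, and any gene filter, are not given in the sources used here. A normalized signal is what the authors deposited. The lowest value was 1 in every library, and after subtracting 1 each library's values were 100% whole multiples of the worth of 1 read (within 0.01 of a read), so the normalized count used here is the value minus 1. No count model was run.

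The comparison was fitted over all genes with limma 3.58.1 in R 4.3.3 (log2(normalized count + 1), trended prior, no covariate, two-sided, Benjamini-Hochberg threshold 0.05), for the 11787 of 15815 genes with a mean of at least 10. The code was also tested on values simulated around the means and residual spread of these data. The outcome of that test is not given here. Single values and pairs were tested by exact permutation in Python 3.11.15 with scipy 1.17.1. Reads amplified without identifiers are not independent molecules, so the limit given for a count of 0 covers counting error only. Lengths, GC and coordinates came from GENCODE M21 and promoters from RefSeq (GRCm38.p6). No pair of libraries agreed within sampling noise (smallest chi-square per degree of freedom 12.0 over recovered reads). Pairs that included WT 2 lay at 50.3 to 89.7, and all other pairs at 12.0 to 27.8.

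The genes and lists were chosen with earlier results of these data known. By the naming rule all 33 genes are accounted for, per-library values are given for Hspa5, Hsp90b1, Calr, Pdia6, Sdf2l1, Creld2, Xbp1, Atf4, Atf6, Ddit3, Ern1, Eif2ak3, Herpud1, Sel1l, Trib3 and Asns and for genes with an unadjusted p under 0.05 or groups that do not overlap, and each pathway list is represented by such genes and its 2 most abundant per length. The text marks other named genes. Alternatives were other pseudocounts, no filter, the replicate block, array weights, voom, a trimmed mean of M values (TMM), and leaving out each library. Leaving out both WT 2 and KO 3 and the correction for GC and length were added after the data were seen.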

Additional observations from a re-analysis of the deposited data

Results flagged for a closer look

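In groups of 4 libraries, a value was set apart where its gap to the nearest other library exceeded 0.829 of the group's range (Dixon's 95% critical value). This was met by 4 values in the 34 WT groups tested, and chance alone sets apart about 1 group in 20. In WT 3 the low values were Sdf2l1, at 161 against 440.0 to 497 in the other WT libraries, Atf6, at 114 against 168 to 177, and Ddit3, at 126 against 250.2 to 265. The high value was Derl1 in WT 2, at 1425 against 965 to 1025. Groups of 3 were not tested. All 3 low values fell in the library that was lowest for 16 of the 32 genes.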

How the results depend on the processing

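No gene of the 32 passed an adjusted p of 0.05 in any of 16 other settings (lowest limma adjusted p 0.921, without WT 3), and 11 kept the sign of their log2 fold change in all of them. Depth limits the low genes most in KO 3, where 1 read is worth 1.84 normalized counts. The number of genes called over the whole table was 0, but 3 with the replicate block, 4 with array weights and 4 without both WT 2 and KO 3. Genes of the set with an unadjusted p under 0.05 numbered 2 with the replicate block (Dnajb9 and Edem2; 3.33% of all tested genes), 1 with array weights (Pdia4; 4.91%), 2 without both WT 2 and KO 3 (Pdia4 and Xbp1; 3.35%), and 0 to 1 when 1 library was left out (0.934% to 3.08%). The cause was not tested. Genes of the set whose groups did not overlap numbered 3 without both libraries (18.9% of all genes), and 0 to 5 when 1 library was left out. The highest of these was without WT 3, where Sdf2l1, Manf, Ddit3, Edem2 and Sec61b were lower in KO (9.09% of all genes), and without WT 4 it was 4 (Canx, Pdia3, Dnajb9 and Edem1, higher in KO; 7.21%). Higher estimates in KO ran from 14 to 24 of 32 when 1 library was left out and were 25 without both WT 2 and KO 3 and 25 with array weights.

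The class medians of the log2 fold change ran from -0.08 to 0.17 for chaperones, from -0.03 to 0.22 for sensors, from -0.10 to 0.12 for degradation genes and from -0.04 to 0.85 for ATF4 targets when 1 library was left out. The Hpgd difference of -10.1 normalized counts ran from -11.5 to -8.26, and 6 libraries cannot reach a p under 0.05 in the exact test. Of the 8 gene pairs, 0 to 1 passed when 1 library was left out. WT and KO libraries with the same replicate number had deviations correlated at 0.01, -0.04 and 0.09, and those with different numbers at -0.20 to 0.20. Library effects such as base composition also enter these values, so they cannot show whether the numbers pair the samples.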
